A study of Homo sapiens with 24 samples.

Results

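Standalone lncRNA promoters are the starts of long noncoding RNA (lncRNA) genes that do not lie beside the promoter of a protein-coding gene. Members were the genes of type lncRNA in GENCODE release 44, in its GRCh37 (hg19) version, whose 5′ gene end was more than 5 kb from every transcription start site (TSS) of a protein-coding gene, 82134 TSS positions in all. The rule chose 13328 of 18702 lncRNA genes, and used no measured value. For each member the window reached 1 kb to each side of the 5′ end (2001 bp). Other starts of the same gene were not examined. The other 5374 lncRNA genes (nearby lncRNAs) and 20163 protein-coding genes were treated the same way, which made 38865 gene-start windows in all.

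The marks were measured by chromatin immunoprecipitation with sequencing (ChIP-seq) in PANC-1 cells, an established line from a human pancreatic ductal carcinoma. The groups were siControl (control siRNA, no TGFβ), siControl+TGFβ (control siRNA, TGFβ at 10 ng/ml for 48 h) and siPHF13+TGFβ (siRNA against PHF13, with the same TGFβ), each with 2 libraries for H3K4me3, H3K27ac and H3K27me3, and thus 18 peak lists. PHF13 is a reader protein that binds H3K4me3. The siRNA lowers a transcript for a limited time in cells of a single line and is not a deletion. Nothing in the labels says that the 2 libraries of a group came from separate cultures, so the tests below measure the spread between libraries only. Peak names within the lists contradict the labels of siControl+TGFβ and siPHF13+TGFβ, and all directions below hold only if the labels are right. Lengths under a mark follow a fixed order, replicates 1 and 2 of siControl, then of siControl+TGFβ, then of siPHF13+TGFβ, unless a range is given. Epithelial genes were used to check the line. KRT8, KRT18, KRT19 and EPCAM had H3K4me3 at their starts in 6 of 6 lists, the keratin KRT7 in 0, and the leukocyte gene PTPRC in 0.

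A lncRNA gene is transcribed by RNA polymerase II like a protein-coding gene, and its active promoter usually carries trimethylated lysine 4 of histone H3 (H3K4me3) and acetylated lysine 27 (H3K27ac). The latter also sits on enhancers, many of which are transcribed. H3K27me3 is laid down by Polycomb repressive complex 2 on silent genes, and promoters with H3K4me3 and H3K27me3 together are called bivalent. Most vertebrate promoters with H3K4me3 lie in CpG islands, stretches where the dinucleotide CG has escaped the loss seen in the rest of the genome. Many lncRNA genes serve as hosts, since small nucleolar RNAs (snoRNAs) or microRNAs (miRNAs) are cut from their introns or exons.

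To show what these promoters look like, 250 bases before and 50 bases from the 5′ end are printed for 5 members, read from GRCh37, with each CG in capitals. The first are NORAD (chr20:34638891-34639190, minus strand), SNHG15 (chr7:45026511-45026810, minus strand) and MALAT1 (chr11:65264861-65265160, plus strand), which carried H3K27ac in all 6 lists. MIR100HG (chr11:122427380-122427679, minus strand) carried H3K4me3 and H3K27me3 in all 6. LINC00632 (chrX:139791477-139791776, plus strand) lost H3K27me3 with TGFβ.
NORAD: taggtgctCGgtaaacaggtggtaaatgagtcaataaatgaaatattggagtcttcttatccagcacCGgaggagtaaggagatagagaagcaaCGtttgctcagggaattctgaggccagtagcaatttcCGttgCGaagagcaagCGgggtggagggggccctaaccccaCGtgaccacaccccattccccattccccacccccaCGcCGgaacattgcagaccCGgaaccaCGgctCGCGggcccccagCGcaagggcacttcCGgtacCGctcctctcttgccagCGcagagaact
SNHG15: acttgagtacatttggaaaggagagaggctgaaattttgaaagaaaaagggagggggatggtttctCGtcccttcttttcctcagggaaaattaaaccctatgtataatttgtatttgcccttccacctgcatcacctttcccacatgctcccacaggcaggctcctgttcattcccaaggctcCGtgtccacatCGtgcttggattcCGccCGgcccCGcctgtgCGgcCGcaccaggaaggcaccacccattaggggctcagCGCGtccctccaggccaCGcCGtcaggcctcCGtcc
MALAT1: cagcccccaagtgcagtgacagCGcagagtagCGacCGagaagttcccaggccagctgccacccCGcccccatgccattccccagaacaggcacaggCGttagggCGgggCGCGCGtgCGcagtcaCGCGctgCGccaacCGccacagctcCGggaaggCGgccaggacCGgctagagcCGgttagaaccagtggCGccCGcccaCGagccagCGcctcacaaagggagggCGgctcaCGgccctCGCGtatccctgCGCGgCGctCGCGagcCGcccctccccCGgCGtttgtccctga
MIR100HG: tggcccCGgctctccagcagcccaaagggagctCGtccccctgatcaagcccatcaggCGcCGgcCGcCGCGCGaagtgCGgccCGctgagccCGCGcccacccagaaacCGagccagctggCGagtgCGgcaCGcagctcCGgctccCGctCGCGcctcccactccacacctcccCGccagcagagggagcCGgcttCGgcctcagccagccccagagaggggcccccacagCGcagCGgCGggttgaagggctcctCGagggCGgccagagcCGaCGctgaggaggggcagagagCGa
LINC00632: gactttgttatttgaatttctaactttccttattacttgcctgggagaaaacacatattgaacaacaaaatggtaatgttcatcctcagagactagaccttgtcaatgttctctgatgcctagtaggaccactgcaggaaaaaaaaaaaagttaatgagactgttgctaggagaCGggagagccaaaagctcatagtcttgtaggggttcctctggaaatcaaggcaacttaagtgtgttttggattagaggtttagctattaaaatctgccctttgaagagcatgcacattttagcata
NORAD held 17 CG dinucleotides in these 300 bases, SNHG15 13, MALAT1 34 and MIR100HG 31. LINC00632 held only 1.

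It was first asked how many standalone lncRNA promoters carry each mark. By library in the order given above, H3K4me3 lay in the window of 1414 and 1698, 1779 and 1665, and 1351 and 1588 members, between 10.1% and 13.3% of all members. H3K27ac lay in 735 and 974, 1332 and 996, and 254 and 1244 windows, between 1.91% and 9.99%. H3K27me3 was found in 1933 and 3669, 2635 and 2592, and 1110 and 2593 windows, between 8.33% and 27.5%. The lists themselves held 27869 to 39202, 6004 to 36104 and 59573 to 165717 peaks, and for all 3 marks the fewest peaks and the fewest marked members were those of siPHF13+TGFβ replicate 1. Read counts are not in the lists, and their depth is unknown.

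In the same lists, 63.9% to 67.2% of protein-coding starts and 60.2% to 64.7% of nearby lncRNA starts had H3K4me3. The share of standalone promoters with H3K4me3 differed from the protein-coding share by −54.0 ± 0.147 percentage points (SD over libraries) and from the nearby lncRNA share by −51.0 ± 0.538 points. For H3K27ac the gaps were −37.4 ± 11.3 and −36.0 ± 10.5 points. Each of these gaps had the same direction in 6 of 6 libraries (two-sided exact sign-flip permutation p = 0.0312, the lowest value possible with 6 libraries). H3K27me3 was different in this respect. It marked 12.7% to 26.7% of protein-coding starts and 10.5% to 22.2% of nearby lncRNA starts, and the gap of standalone promoters was −2.51 ± 1.78 points from the former (below 0 in 5 of 6 libraries, exact permutation p = 0.0625) and 0.966 ± 2.55 points from the latter (below 0 in 2 of 6, exact permutation p = 0.406). Neither passed the test. With the lists of a mark cut to equal length the H3K27ac gaps were −17.8 and −18.6 points (exact permutation p = 0.0312 for each), and the H3K27me3 gaps were −4.17 and −1.60 points, below 0 on both counts (exact permutation p = 0.0312 for each).

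**Figure D1:**
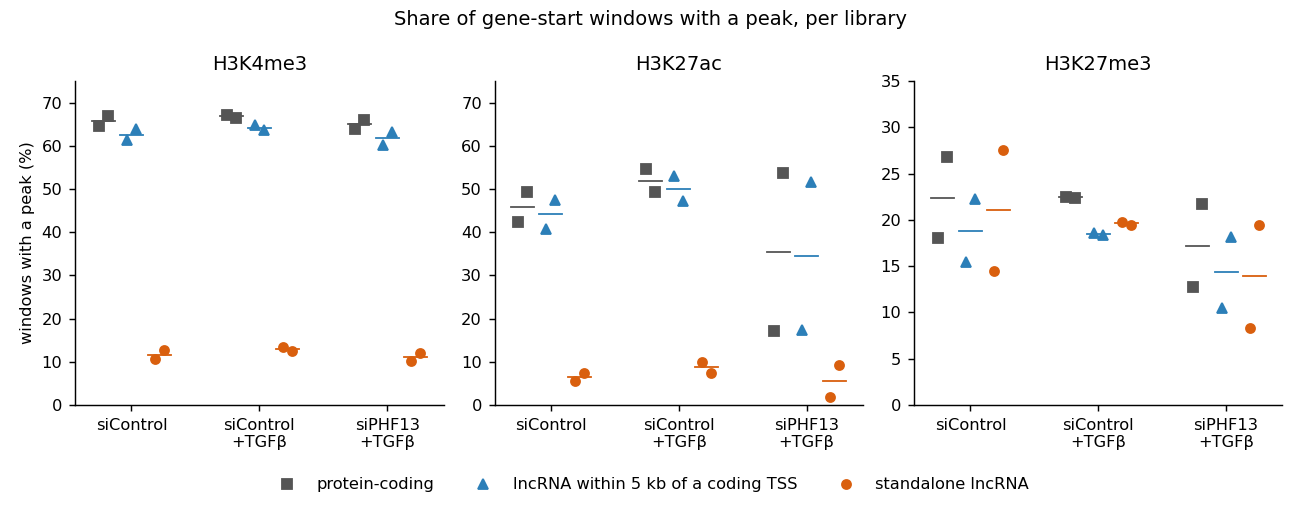
Share of gene-start windows with a peak (y axis, %) in the 3 groups (x axis) for each mark. Points are libraries (left, replicate 1; right, replicate 2) and lines are group means; standalone lncRNA promoters lie far below the other sets for H3K4me3 (at most 13.3%) and H3K27ac (at most 9.99%), and among them for H3K27me3.

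H3K4me3 was more frequent at lncRNA starts close to a coding TSS. Of 3525 lncRNA genes that start within 1 kb of a protein-coding TSS, where both windows cover the same DNA, 81.6% had H3K4me3 in the mean library, against 30.9% of 1497 genes at 1 to 4 kb. Just outside the rule, 352 lncRNA genes at 4 to 5 kb had H3K4me3 at 8.24% to 12.5% per library. Just inside it, 328 members at 5 to 6 kb had it at 11.3% to 15.2%. The values on the 2 sides of the threshold overlapped. The median CpG ratio described below fell along the same distances, from 0.70 within 1 kb to 0.31 at 1 to 4 kb and 0.26 at 4 to 5 and at 5 to 6 kb, and its part in these shares was not tested. Among members, H3K4me3 was present in all 6 lists at 12.3% of those 5 to 20 kb from a coding TSS, 11.6% of those 20 to 100 kb away and 5.40% of those farther than 100 kb. The median distance was 53666.5 bp.

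Members were also sorted by position relative to coding genes. The 5′ end was intergenic in 9353 members (70.2%), within an intron of a gene on the opposite strand in 2272, and within an intron of a gene on the same strand in 954. H3K4me3 was present in all 6 lists at 12.1% of intergenic starts, 3.43% of intronic antisense starts and 4.40% of intronic same-strand starts. For H3K27me3 the shares were 7.30%, 4.71% and 3.98%. Of the members, 9608 are known only by an Ensembl identifier, and 7.82% of these had H3K4me3 in all 6 lists against 14.3% of the 3720 with a gene symbol. None of these differences was tested.

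Across all 18 lists, 7770 members (58.3%) had no peak of any mark in the window. A peak at a start of the gene outside the window was not counted. H3K4me3 was present in at least 1 list at 1920 members, H3K27ac at 1419 and H3K27me3 at 4098. Of the 1920 members with H3K4me3, 638 (33.2%) had it in some lists and not in others, against 6.84% of protein-coding starts with H3K4me3. For H3K27ac the shares were 82.5% and 69.6%, and for H3K27me3 79.1% and 63.0%. The differences between these shares were not tested. Peaks covered less of the window at members. Only the part of a peak that lies inside the window was counted, so these are not peak lengths. The median length of the window under H3K4me3 was 929 to 1098 bp per library at marked members and 1273 to 1519 bp at marked coding starts, and for H3K27me3 it was 509 to 1165 bp and 714 to 1457 bp.

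**Figure D2:**
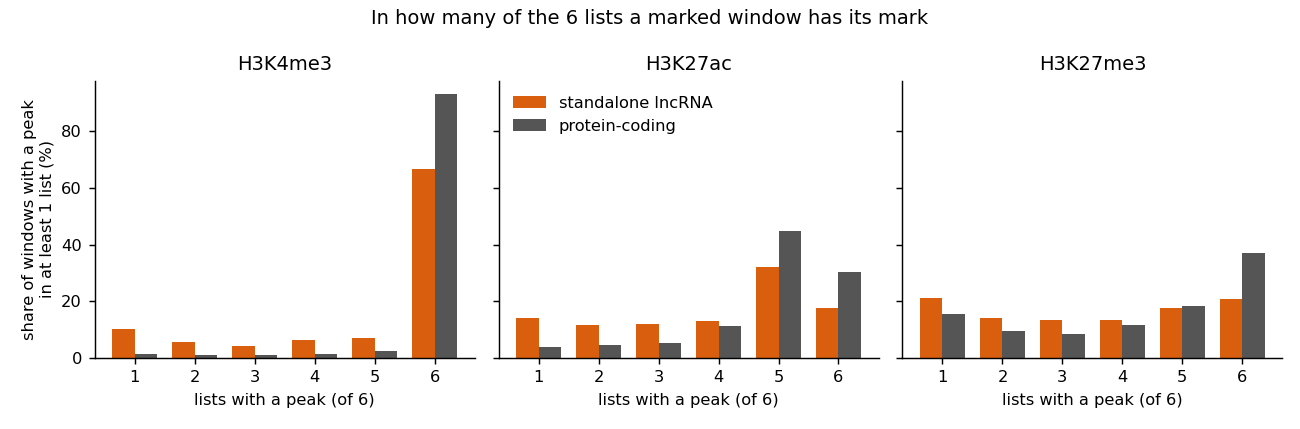
For windows with a peak in at least 1 list, the share (y axis, %) that had it in 1 to 6 of the 6 lists (x axis), in standalone lncRNA promoters and protein-coding starts. H3K4me3 in all 6 lists dominates coding starts, while 33.2% of marked standalone promoters had it in 5 lists or fewer.

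Standalone promoters were then sorted by the marks they kept in all 6 lists of a mark while having none of the other marks in any list. H3K4me3 with H3K27ac, the pattern of active promoters, was found at 212 members. H3K4me3 with H3K27me3, the bivalent pattern, was found at 126, H3K4me3 alone at 69 and H3K27me3 alone at 601. H3K27ac alone was found at 2, and all 3 marks at 10. Set against protein-coding starts, the active class was rarer (1.59% of members and 16.4% of coding starts), as was the bivalent class (0.945% and 5.49%), while H3K27me3 alone was more common (4.51% and 3.07%). These shares are descriptions of the classes and were not tested.

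In the active class, the 5 named members with the most covered bp were LINC02086, LINC03057, LINC02987, LINC01465 and NUTM2A-AS1. LINC02086 and LINC03057 start 100 bp apart on opposite strands, 13351 and 13451 bp from HOXB7, and their windows share nearly all of their sequence, so they are a single observation. At LINC02086 (chr17, 5′ end 46724285, plus strand) H3K4me3 covered 1979 and 2001, 2001 and 2001, and 2001 and 2001 bp. H3K27ac covered 1718 and 1818, 1982 and 1934, and 859 and 1977 bp. LINC02987 lies 1419719 bp from the nearest coding TSS and was still covered by H3K4me3 over 1672 to 2001 bp. The window of NUTM2A-AS1 has 2 near-identical copies elsewhere in the genome, so its peaks are uncertain.

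Long, abundant lncRNAs showed the active pattern in part. 9 of the 11 annotated genes on this list were members, and 7 of these had H3K4me3 in all 6 lists and 0 had H3K27me3 in any. NORAD, which binds the PUMILIO proteins in the cytoplasm, was covered by H3K4me3 over 898 and 1240, 1278 and 1222, and 912 and 1237 bp. H3K27ac at NORAD covered 910 and 1127, 1290 and 992, and 804 and 1129 bp. NEAT1, the scaffold of nuclear paraspeckles, had H3K4me3 over 229 to 803 bp in all 6 lists and H3K27ac in 5 (360 and 649, 1209 and 627, and 0 and 1728 bp). KCNQ1OT1, an imprinted antisense transcript that starts inside KCNQ1, had H3K4me3 over 1544 to 2001 bp and H3K27ac over 511 and 533, 763 and 618, and 0 and 1076 bp. JPX, at the X-inactivation centre, had H3K4me3 over 1046 to 1471 bp and H3K27ac over 248 to 1566 bp. In all 4, replicate 1 of siPHF13+TGFβ had the least H3K27ac. CYTOR, whose window has 1 near-identical copy, had H3K4me3 over 260 to 371 bp.

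MALAT1, a nuclear lncRNA of splicing speckles, differed from these. Its window (chr11, 5′ end 65265111, plus strand) had H3K27ac in 6 of 6 lists, over 1141 and 1402, 1347 and 1228, and 218 and 1392 bp, but H3K4me3 in 0 of 6. The nearest H3K4me3 peak began downstream, 1714 to 1925 bp from the 5′ end, at a fold enrichment of 1.86 to 2.46 as the authors' peak caller gave it. H3K27ac lay on both sides of the 5′ end. A peak began 157 to 372 bp downstream in each list, at a fold enrichment of 1.94 to 3.54, which overlaps that of H3K4me3. In 5 of 6 lists, all but siPHF13+TGFβ replicate 1, a second peak ended 320 to 365 bp upstream. The 300 bases printed above, with 34 CG, lie between these peaks. LINC00511 had the reverse combination, H3K4me3 over 961 and 954, 1301 and 1154, and 686 and 1003 bp, with H3K27ac and H3K27me3 in 0 lists.

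Hosts of snoRNAs stood out by how many were marked. Of 19 members, 17 had H3K4me3 in all 6 lists (89.5%, against 9.62% of all standalone promoters), and the same number had H3K27ac in at least 1 list. The CpG ratio described below was 0.52 to 0.79 at these 17. Among all members, H3K4me3 was in all 6 lists at 29.1% of those with a ratio of 0.4 to 0.6. At 0.6 to 0.8 the share was 67.8%. The part of CpG content in the share of the hosts was not tested. SNHG15 was covered by H3K4me3 over 1529 and 1583, 1682 and 1566, and 1435 and 1580 bp and by H3K27ac over 958 and 1075, 1393 and 1341, and 276 and 1382 bp. SNHG16 had H3K4me3 over 1538 to 1858 bp and H3K27ac over 873 and 1322, 1645 and 1391, and 0 and 1727 bp. SNHG7, SNHG21, SNHG25 and SNHG30, the others with the most covered bp, had H3K4me3 over 1348 to 2001 bp. H3K27ac at SNHG7 covered 572 and 800, 1358 and 890, and 0 and 1407 bp, at SNHG21 197 and 1160, 1661 and 1686, and 171 and 1391 bp, and at SNHG30 443 and 1288, 1504 and 1413, and 0 and 1328 bp. In these 3, as in SNHG15 and SNHG16, both siControl+TGFβ libraries had more than both siControl libraries, while at SNHG25 the groups overlapped. The median at marked coding starts had the same order, with 739 and 930 bp in siControl against 1297 and 967.5 bp in siControl+TGFβ. Only SNHG28 among the hosts met the criterion for a change given below. It had H3K27me3 over 0 and 302, 782 and 866, and 0 and 0 bp. Loss of H3K27me3 with PHF13 depletion was called at 1.29% of all gene-start windows.

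Hosts of miRNAs were divided. Of 68 members, 23 had H3K4me3 in all 6 lists, 6 had H3K27ac in all 6 and 7 had H3K27me3 in all 6, while 28 had no mark in any list. MIR210HG, whose miRNA responds to hypoxia, had H3K4me3 over 1711 to 1932 bp and H3K27ac over 832 and 1294, 1531 and 1229, and 0 and 1480 bp. MIR762HG and MIR9-1HG had H3K4me3 over 1662 to 1919 bp and 1336 to 1868 bp, and MIRLET7IHG, host of a let-7 miRNA, over 615 and 1382, 1618 and 1257, and 1195 and 1261 bp. These 3 kept H3K27ac in all 6 lists, MIRLET7IHG over at least 1461 bp in each. The window of MIRLET7IHG (5′ end 62996532) overlaps that of LINC01465 (5′ end 62997470), so these genes are not separate observations. MIR31HG had less of both marks, H3K4me3 over 262 and 647, 570 and 305, and 88 and 476 bp and H3K27ac over 183 and 967, 1374 and 552, and 87 and 1218 bp. MIR1302-2HG lies at the end of chromosome 1 in a window with 4 near-identical copies, and had all 3 marks in all 6 lists. At the other end, MIR670HG had H3K27me3 over 531 to 2001 bp and no other mark.

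Bivalent windows included MIR100HG, a miRNA host known to be induced by TGFβ in other cells. H3K4me3 covered 871 and 1111, 1112 and 1153, and 1016 and 1130 bp. H3K27me3 covered 2001 and 2001, 2001 and 1810, and 261 and 2001 bp, and H3K27ac 0 bp in all 6. MIR100HG thus had both marks in every group, and neither was gained or lost. SNX10-AS1 and LINC02981, 12376 and 34268 bp from the coding gene SNX10, had H3K4me3 over 1346 to 1510 bp and 1287 to 1865 bp, with H3K27me3 in all 6 lists. PIWIL4-AS1, within an intron of AMOTL1 on the opposite strand, had H3K4me3 over 1068 to 1267 bp. LINC02798 and DPY19L2P4, the other named members of the class, each have 1 near-identical copy and are uncertain.

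H3K4me3 alone, with neither of the other marks in any list, was led by LINC02197 (1 near-identical copy), LINC01530, FRMD3-AS1, PYDC2-AS1 and LINC00511. LINC01530, on chromosome 19 and 21068 bp from ZNF175, was covered over 1440 and 1433, 1411 and 1394, and 1086 and 1188 bp. PYDC2-AS1 varied most among them, with 1104 and 1323, 1604 and 1021, and 367 and 1085 bp. The class with H3K27me3 alone was led by FAM138B, LINC01880, LINC02799 and PDE4DIPP4, all with near-identical copies, and by TRIM67-AS1 (1875 and 2001, 2001 and 2001, and 1793 and 2001 bp), which has none. Of the 601 members of that class 120 had such a copy.

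H19, an imprinted gene expressed from the maternal allele in the fetus, carried H3K27me3 over 2001 bp in 5 lists and 595 bp in siPHF13+TGFβ replicate 1, with neither of the other marks. The 11 members of a list of lncRNAs tied to TGFβ or to the epithelial-to-mesenchymal transition held H19, MIR100HG, MIR31HG, LINC01116, LINC-ROR and UCA1, and 3 of the 11 had H3K4me3 in all 6 lists. LINC01116 had H3K4me3 over 1301 to 1682 bp and H3K27ac over 379 and 609, 1143 and 1029, and 0 and 1314 bp. LINC-ROR and UCA1 had H3K27me3 in 4 and 3 lists and no other mark. Of the list, 5 had no mark at all and 0 gained or lost a mark in either comparison. Over all gene-start windows at most 1.29% did so for any 1 mark and direction, so 0 of 11 says little about these genes.

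Developmental lncRNAs mostly start within 5 kb of a coding gene, so that 6 of 24 were members. LINC00261, beside the endoderm factor FOXA2, had H3K4me3 over 1015 and 1216, 1640 and 1666, and 868 and 1529 bp, more in both siControl+TGFβ libraries than in any other. DLX6-AS1 had H3K27me3 over 1227 and 2001, 1714 and 2001, and 242 and 2001 bp. LINC00461 had H3K4me3 over 693 to 1379 bp and H3K27me3 in 5 lists. Of 6 members on a list of lncRNAs reported in pancreatic cancer, 0 had H3K4me3 in all 6 lists. CASC15 had it in 5 (315 and 847, 917 and 242, and 0 and 358 bp), LINC01963 in 3, and 3 members had no mark.

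**Figure D3:**
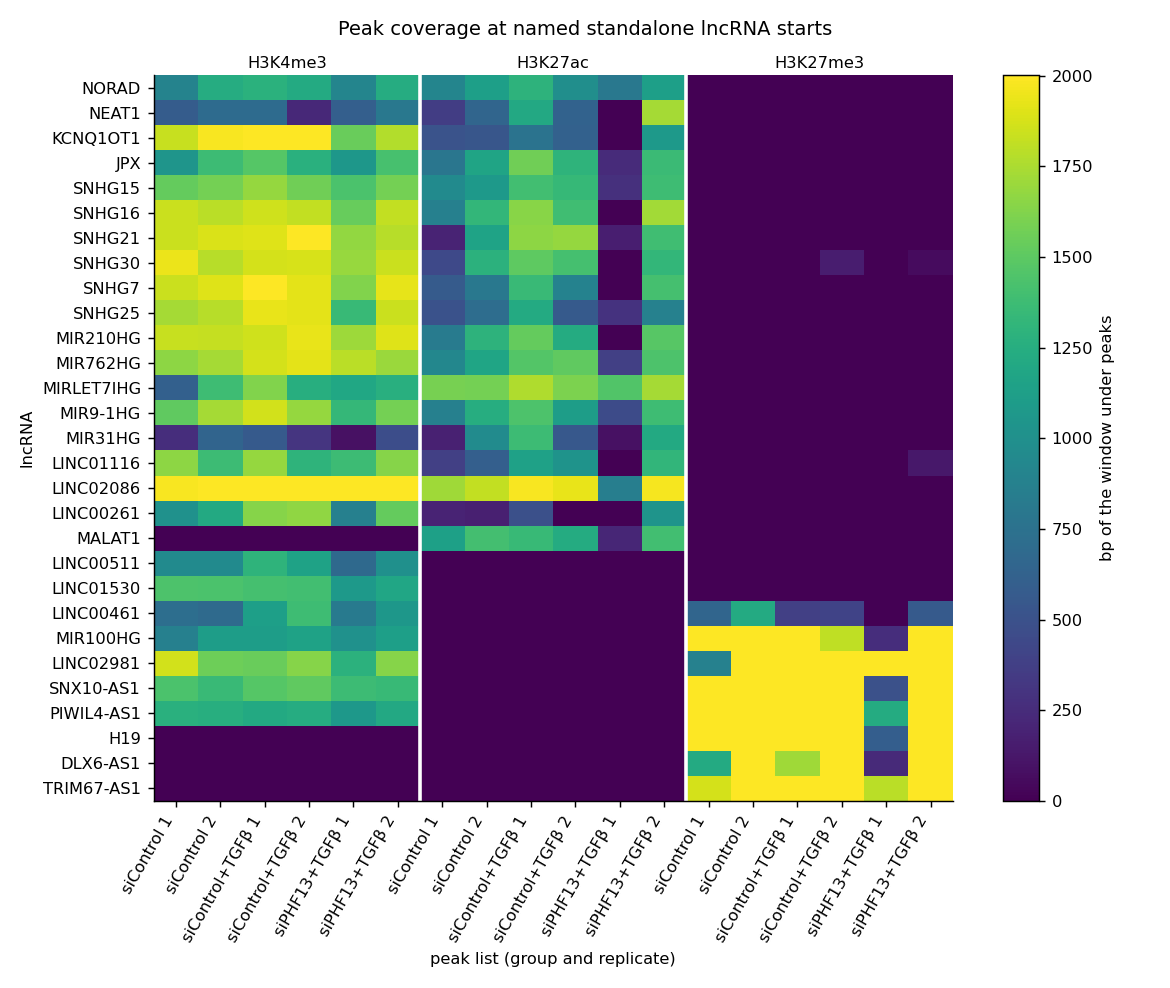
Length of the 2001-bp window under peaks (colour, 0 to 2001 bp) at 29 named standalone lncRNA starts (rows) in each of the 18 lists (columns, by mark, group and replicate). From top to bottom the rows pass from H3K4me3 with H3K27ac, through MALAT1 (H3K27ac without H3K4me3), to H3K4me3 with H3K27me3 and to H3K27me3 alone.

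What these classes share in sequence was examined next. CpG content was taken as the observed over expected number of CG in the window, which is near 0.6 or more in CpG islands. Its median was 0.24 in all standalone promoters, 0.61 in nearby lncRNA and in protein-coding starts. Within members it was 0.64 in the active class, 0.57 in the bivalent class, 0.40 with H3K4me3 alone, 0.24 with H3K27me3 alone and 0.22 with no mark. A value of at least 0.6 was reached by 64.6% of the active class and 47.6% of the bivalent class, but by 1.83% of windows with H3K27me3 alone.

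H3K4me3 rose with CpG content in both sets. In the mean library it marked 1.51% of 5029 members with a ratio under 0.2, 33.7% of 1540 at 0.4 to 0.6, and 84.3% of 117 at 0.8 or above. At like CpG content coding starts had more of it, with 3.25%, 74.0% and 95.5%. The gap between the sets was widest at 0.4 to 0.6. H3K27ac followed the same course, from 1.70% to 62.5% of members. H3K27me3 did not, with 15.3% at the lowest ratio and 16.2% at the highest in members, and 27.7% and 16.3% in coding starts. No test was made of these shares.

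**Figure D4:**
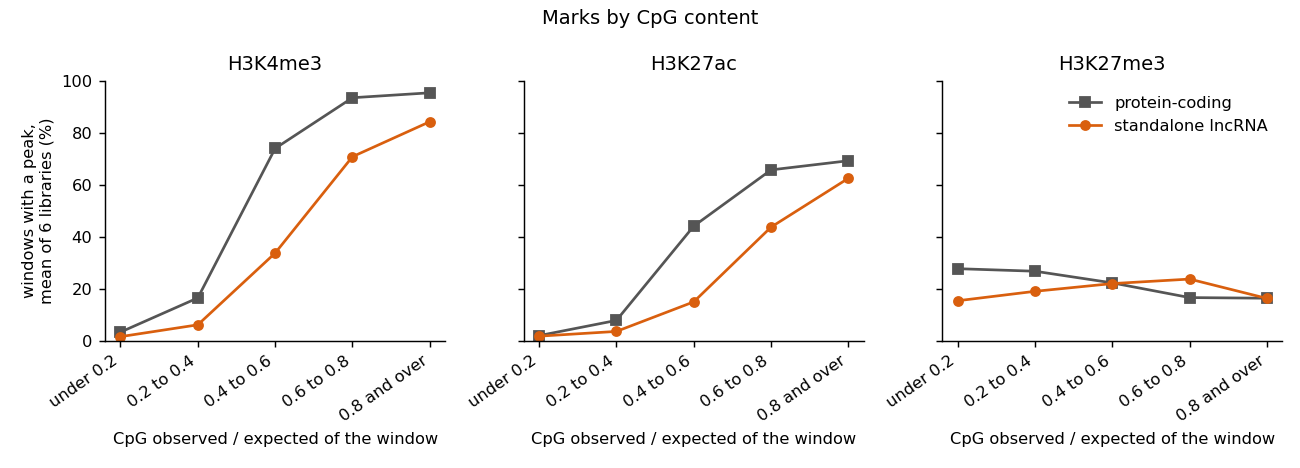
Share of windows with a peak in the mean of 6 libraries (y axis, %) by the CpG observed over expected ratio of the window (x axis) for each mark. In standalone lncRNA promoters H3K4me3 rises from 1.51% to 84.3% and lies below protein-coding starts in each bin, while H3K27me3 stays between 15.3% and 23.7%.

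H3K4me3 at a standalone promoter came less often with H3K27ac and more often with H3K27me3 than at a coding promoter. With a mark counted where both libraries of a group had it, H3K4me3 was present at 1393, 1619 and 1336 members in the 3 groups in turn. Of these, 45.2%, 55.1% and 17.6% also had H3K27ac, against 64.5%, 73.7% and 26.6% of coding starts with H3K4me3. H3K27me3 was present at 20.8%, 23.4% and 15.7%, against 14.8%, 16.5% and 11.1%. The order of the sets was the same in each of the 3 groups, and the low values in siPHF13+TGFβ go with the short lists of its replicate 1. These shares were not tested.

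The comparison of siControl+TGFβ with siControl asks what TGFβ does to these marks. The share with H3K4me3 was 11.7% ± 1.51 in siControl and 12.9% ± 0.605 in siControl+TGFβ (SD, n = 2), a difference of 1.25 percentage points that was within the spread of the libraries (two-sided exact permutation p = 0.667). It was 0.458 points with lists of equal length, 0.180 without siControl replicate 1, 2.31 without siControl replicate 2 and 0.818 without siControl+TGFβ replicate 1. The share with H3K27ac was 6.41% ± 1.27 and 8.73% ± 1.78, higher by 2.32 points, with both siControl+TGFβ libraries above both siControl libraries (exact permutation p = 0.333, the lowest value possible with 2 against 2). That difference shrank to 0.263 points with lists of equal length. It was 1.43 points without siControl replicate 1, 1.06 without siControl+TGFβ replicate 1 and 3.58 without siControl+TGFβ replicate 2. H3K27me3 was at 21.0% ± 9.21 and 19.6% ± 0.228 (exact permutation p = 1), and without siControl replicate 2, which had the longest list, the difference of −1.41 points became 5.11 points. Divided by the share of coding starts in the same library, the changes were 0.13 for H3K4me3, 0.26 for H3K27ac and −0.06 for H3K27me3 on the log2 scale (exact permutation p = 0.667, 0.333 and 1), and 0.053, 0.13 and −0.023 with lists of equal length. Without siControl replicate 2 the last was 0.12. At the 1282 members with H3K4me3 in all 6 lists, the median length under the mark was 1097 and 1225 bp in siControl and 1310 and 1255.5 bp in siControl+TGFβ, a change in median log2 length of 0.15 (exact permutation p = 0.333).

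Single promoters were called gained when both libraries of the later group had a peak in the window and neither library of the other had one, and lost in the reverse case. With TGFβ, 54 standalone promoters gained H3K4me3 (0.405%, against 0.316% of all gene-start windows) and 1 lost it (0.0103% of all windows). H3K27ac was gained at 103 (0.773%, against 1.25% of all windows) and lost at 1 (0.00515% of all). H3K27me3 was gained at 42 (0.315%, against 0.296%) and lost at 120 (0.900%, against 0.605%). All these shares were within 1.5 times the background except that of gained H3K27ac, which was below it. This background includes the members themselves. In the other sets alone, H3K27me3 was lost at 0.427% of coding and 0.540% of nearby lncRNA starts, and H3K27ac was gained at 1.49% and 1.53%. With lists of equal length 33 members gained H3K27ac. H3K27me3 was then gained at 75 and lost at 66, so that gains outnumbered losses. With a −log10 q of at least 3 it was gained at 4 and lost at 4. Because few members are marked at all, the counts from the full lists are a larger part of those with the mark in any of the 4 lists. Gained H3K4me3 made up 2.84% of 1903 such members and 0.381% of 13666 coding starts, and gained H3K27ac 7.57% of 1360 and 2.72% of 11056. Lost H3K27me3 made up 2.99% of 4010 such members and 1.46% of 5884 coding starts, and gained H3K27me3 1.05% and 1.09%.

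The promoters that gained H3K4me3 with TGFβ had little of the window under the mark. The median was 312 bp against 1132 bp over all members with the mark in both siControl+TGFβ libraries. ENSG00000231394, 20789 bp from VOPP1, was covered over 0 and 0, 734 and 824, and 0 and 0 bp, and had H3K27me3 in all 6 lists. ENSG00000256226 had 667 and 621 bp in siControl+TGFβ alone, and ENSG00000284719 had 537 and 606 bp there with 238 bp in siPHF13+TGFβ replicate 2. ENSG00000262884, inside RAP1GAP2 on the opposite strand, had 185 and 927 bp. The single loss was ENSG00000249199 (155 and 165, 0 and 0, and 0 and 181 bp). Of the 54, 22 carry a gene symbol.

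Where H3K27ac was gained with TGFβ, 55 of the 103 promoters had H3K4me3 in all 6 lists. ENSG00000271398, 10990 bp from ATP5IF1, was such a case, with H3K27ac over 0 and 0, 1264 and 757, and 0 and 824 bp. ENSG00000254991, 27079 bp from MICAL2, had 0 and 0, 1538 and 1480, and 0 and 1196 bp. ENSG00000287167 lies in an intron antisense to its host, 97333 bp from the nearest coding TSS, that of ZFP36L1. It had 0 and 0, 1687 and 1258, and 0 and 1413 bp, without H3K4me3 in any list. The only loss was ENSG00000290808 (626 and 1273, 0 and 0, and 0 and 1403 bp).

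H3K27me3 was lost with TGFβ at LINC00632, a gene on the X chromosome that also yields a circular RNA, which had 517 and 1884, 0 and 0, and 0 and 523 bp. B3GALT1-AS1 had 968 and 2001, 0 and 0, and 0 and 307 bp, and LINC02632 had 1363 and 1146, 0 and 0, and 0 and 392 bp. ENSG00000277757 had 343 and 2001, 0 and 0, and 0 and 1996 bp. All 4 had H3K27me3 in siPHF13+TGFβ replicate 2 but not in replicate 1, and none had H3K4me3 or H3K27ac. Gains included ENSG00000231949 (0 and 0, 905 and 1317, and 0 and 1693 bp), ENSG00000288459 (2001 and 348 bp), ENSG00000260254 (370 and 1800 bp) and ENSG00000257378 (1122 and 810 bp), the last 3 in siControl+TGFβ alone.

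PHF13 depletion was compared under TGFβ, siPHF13+TGFβ with siControl+TGFβ. The share with H3K4me3 was 12.9% ± 0.605 in siControl+TGFβ and 11.03% ± 1.26 in siPHF13+TGFβ (SD, n = 2), and fell by 1.89 points, both siPHF13+TGFβ values lying under both siControl+TGFβ values (p = 0.333 by the exact permutation test). It came to −1.01 points once siPHF13+TGFβ replicate 1 was left out and to −0.664 points with lists of equal length. Relative to coding starts the change was −0.19 on the log2 scale (exact permutation p = 0.333), −0.10 without that library and −0.074 with lists of equal length. Median length under H3K4me3 at the 1282 members fell to 951.5 and 1214.5 bp, a change in median log2 length of −0.25 (exact permutation p = 0.333) that was −0.08 without that library. H3K27ac stood at 5.62% ± 5.25 in siPHF13+TGFβ, since replicate 1 had 1.91% and replicate 2 had 9.33%. The difference of −3.11 points (exact permutation p = 0.667) was 0.6002 points without replicate 1, in the other direction, and −0.308 points with lists of equal length. H3K27me3 stood at 13.9% ± 7.87 (difference −5.72 points, exact permutation p = 0.667), and the difference was −0.154 points without replicate 1 and −2.68 points with lists of equal length. For H3K27ac and H3K27me3 the change thus rested on 1 library.

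With PHF13 depletion 92 standalone promoters lost H3K4me3 (0.690%, against 0.589% of all gene-start windows) and 3 gained it (0.0225%, against 0.0103%). H3K27ac was lost at 25 (0.188%, against 0.219%) and gained at 0 (0.00257% of all windows). H3K27me3 was lost at 223 (1.67%, against 1.29%) and gained at 18 (0.135%, against 0.111%). The shares were within 1.5 times the background except those of gained H3K4me3, which rests on 3 windows, and of gained H3K27ac. The 92 promoters that lost H3K4me3 made up 4.96% of 1855 members with the mark in any of the 4 lists, against 0.763% of 13625 coding starts. Lost H3K27ac made up 1.77% of 1414 such members and 0.421% of 11167 coding starts. Lost H3K27me3 made up 6.52% of 3419 such members and 4.39% of 5354 coding starts, and gained H3K27me3 0.526% and 0.318%. Of all coding starts, marked or not, 0.233% lost H3K27ac and 1.17% lost H3K27me3. The differences between these shares were not tested.

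**Figure D5:**
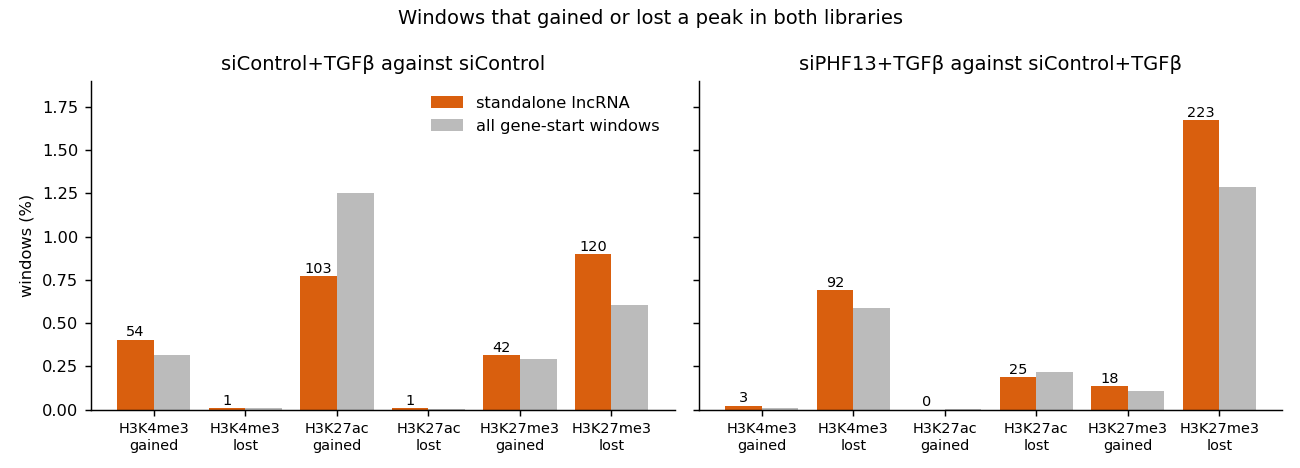
Share of windows (y axis, %) that gained or lost each mark in both libraries (x axis) with TGFβ (left) and with PHF13 depletion under TGFβ (right), in standalone lncRNA promoters, with their number above the bar, and in all 38865 gene-start windows. The shares of members lie within 1.5 times the background, which includes them, except for H3K27ac gained with TGFβ, at 0.773% against 1.25%, and for H3K4me3 and H3K27ac gained with PHF13 depletion, which rest on 3 and 0 members.

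H3K4me3 was lost with PHF13 depletion at windows of which the mark covered little. The median was 356.5 bp in siControl+TGFβ against 1132 bp over all members that had it in both libraries. None of the 92 had H3K4me3 in all 6 lists, which the criterion does not allow, and 44 had H3K27ac in at least 1 list. ENSG00000289377, 162622 bp from IRF2BP2, had 231 and 772, 927 and 866, and 0 and 0 bp, yet kept H3K27ac in 6 of 6 lists. ENSG00000284641, 9988 bp from CAMK2N1, had 0 and 526, 726 and 925, and 0 and 0 bp. LINC01271, 130656 bp from CEBPB, had 0 and 268, 1040 and 571, and 0 and 0 bp. ENSG00000231394 is the same promoter that led the gains with TGFβ, and both calls share the siControl+TGFβ libraries. Gains were FAM66E (275 and 225 bp, with 6 near-identical copies), ENSG00000233928 (168 and 259 bp) and ENSG00000289071 (155 and 252 bp), each of which also had a peak in siControl replicate 2.

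H3K27ac was lost at ENSG00000290079, 59616 bp from RAP2B, which had 0 and 0, 1399 and 720, and 0 and 0 bp, with H3K4me3 in 5 lists. ENSG00000255250 had 0 and 0, 1158 and 516, and 0 and 0 bp, and no H3K4me3. ENSG00000259617 (0 and 167, 1325 and 568, and 0 and 0 bp) and ENSG00000271980 (353 and 0, 1027 and 536, and 0 and 0 bp) also had none. H3K27me3 was lost at LINC01177 (0 and 2001, 1954 and 1350, and 0 and 0 bp), LINC00868 (0 and 2001, 1294 and 2001, and 0 and 0 bp) and POU2F2-AS2, which lies antisense in an intron (0 and 441, 2001 and 1233, and 0 and 0 bp). ENSG00000290665 (357 and 2001, 2001 and 1072, and 0 and 0 bp) has 4 near-identical copies. In these 4 windows siControl replicate 2 also had the mark. The gain of H3K27me3 at LINC03056 (0 and 967, 0 and 0, and 1130 and 1345 bp) and ENSG00000286176 (674 and 927, 0 and 0, and 550 and 1079 bp) came beside peaks of the same mark in siControl. LINC02947 and ENSG00000227192 had the same pattern, with H3K27me3 in 4 lists each.

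Short motifs were sought in the 300 bases around each start, on either strand. The AP-1 site TGACTCA (or its complement TGAGTCA), bound by FOS and JUN proteins, was present at 6.74% of members and 4.87% of all gene starts, and at 8.02% of members with H3K4me3 in any list and 10.0% of those with H3K27ac in any list. Among promoters that gained H3K4me3 with TGFβ it was present at 9 of 54 (16.7%), among those that gained H3K27ac at 17 of 103 (16.5%), and among those that lost H3K4me3 or H3K27ac with PHF13 depletion at 15 of 92 (16.3%) and 7 of 25 (28.0%). In the other direction it was present at 1 of 1 promoter that lost H3K4me3 with TGFβ and 1 of 1 that lost H3K27ac. It was present at 0 of 3 that gained H3K4me3 with PHF13 depletion. All these counts share the siControl+TGFβ libraries. For H3K27me3 it was present at 4 of 42 promoters that gained the mark with TGFβ (9.52%), 8 of 120 that lost it (6.67%), 1 of 18 that gained it with PHF13 depletion (5.56%) and 25 of 223 that lost it (11.2%). The SMAD palindrome GTCTAGAC was found at 27 members (0.203%, against 0.185% of all gene starts), and the TATA box TATAAA at 18.9% (13.3% of all). No test was made, and a match of letters is not a binding site.

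For 3 promoters that changed and held the AP-1 site, the same 300 bases are printed with its letters in capitals. Most promoters that changed held no such site. The 3 are LINC01271 (chr20:48937974-48938273, minus strand), ENSG00000231394 (chr7:55661220-55661519, plus strand) and ENSG00000290079 (chr3:152939582-152939881, minus strand).
LINC01271: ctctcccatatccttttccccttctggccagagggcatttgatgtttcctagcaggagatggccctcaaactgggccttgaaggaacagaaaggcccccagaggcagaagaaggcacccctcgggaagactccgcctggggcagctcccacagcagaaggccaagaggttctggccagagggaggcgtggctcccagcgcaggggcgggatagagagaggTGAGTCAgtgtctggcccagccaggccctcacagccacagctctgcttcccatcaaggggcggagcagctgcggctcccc
ENSG00000231394: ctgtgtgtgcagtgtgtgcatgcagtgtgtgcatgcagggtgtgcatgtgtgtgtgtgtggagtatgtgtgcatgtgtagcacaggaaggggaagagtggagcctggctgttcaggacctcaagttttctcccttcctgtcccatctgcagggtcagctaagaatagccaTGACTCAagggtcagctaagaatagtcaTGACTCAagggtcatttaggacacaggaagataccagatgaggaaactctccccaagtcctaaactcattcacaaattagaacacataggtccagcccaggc
ENSG00000290079: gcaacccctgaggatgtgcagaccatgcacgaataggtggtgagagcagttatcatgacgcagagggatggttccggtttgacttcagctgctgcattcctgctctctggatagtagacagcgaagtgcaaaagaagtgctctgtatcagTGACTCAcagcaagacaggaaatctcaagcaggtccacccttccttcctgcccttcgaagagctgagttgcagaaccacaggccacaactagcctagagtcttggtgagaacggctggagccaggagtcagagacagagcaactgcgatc
ENSG00000231394 held 2 AP-1 matches and no CG, and LINC01271 and ENSG00000290079 held 1 match and 7 CG each. All 3 had lower CpG content over the window (0.21, 0.19 and 0.25) than the median of the active class.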

How the data were processed

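ChIP-seq peak lists of H3K4me3, H3K27ac and H3K27me3 from PANC-1 cells (3 groups, 2 libraries each, 18 lists) were used, and the 6 inputs were not analysed here. According to the study's methods and processing notes, the authors trimmed reads (Trim Galore 0.4.1), aligned them to hg19 (Bowtie2 2.4.1), removed duplicates (Picard) and called peaks per library against input (MACS2 2.2.7.1), narrow for H3K4me3 and H3K27ac and broad for H3K27me3. The deposited lists hold, for each peak, its score, its fold (ratio to input) and −log10 p-value and q-value columns. The lowest −log10 q was 1.30 in narrow lists, below the threshold stated for them, and 1.00 in broad lists. A list with more reads or better enrichment yields more and wider peaks.

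From these, the length of each window under peaks was computed (Python 3.11.15, NumPy 2.4.6), and a mark was present with at least 1 bp covered. The step was tested on simulated data against bedtools 2.31.1. Genes were those of GENCODE release 44 on GRCh37, and on 0 of 24 chromosomes did a peak end past that sequence. Shares were compared by exact permutation of libraries, and sets within libraries by exact sign flips. A near-identical copy was an alignment of at least 500 bp at 95% identity elsewhere in the genome (minimap2 2.31). CpG content was not computed for 13 windows with under 1000 known bases. Named members were the 4 gained and 4 lost with the most covered bp per mark and comparison, the 5 with the most in each class, preferring gene symbols, and up to 6 for each of 6 gene lists. MIR670HG and the check genes of the line were added after the data were seen. The members and lists were chosen with earlier results of these data known. Alternatives were a −log10 q of at least 3, lists of equal length, at least 200 bp covered, a window of 500 bp each side, a distance over 10 kb, joined windows, leaving out each library, the replicate number as a block and, added after the data were seen, members without near-identical copies and crossed replicate numbers.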

Additional observations from a re-analysis of the deposited data

How the results depend on the processing

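Of 32 results, the gaps of H3K4me3 and H3K27ac shares to both other sets kept their direction under each alternative run. The changes of share and relative share did so too for H3K4me3 in both comparisons and for H3K27ac with TGFβ. So did the changes in length under H3K4me3, the H3K27me3 gap to coding starts and the H3K27me3 share change with PHF13 depletion. The size of these changes varied between runs, and none passed the test. The replicate numbers were not stated to mark a shared culture, and the deviations of same-numbered libraries correlated at −0.28 to 0.064 over windows. With the replicate block each change of share had the same value (1.25 and −1.89 points for H3K4me3, 2.32 and −3.11 for H3K27ac, −1.41 and −5.72 for H3K27me3, exact permutation p of 0.5 or 1). Any pairing of 2 with 2 libraries keeps these values, and the smallest exact permutation p with 2 pairs is 0.5. Neither this block nor crossed numbers, chosen after the data were seen and run for H3K4me3 and H3K27ac only, could thus give a call. Peak lists limit the rest: no read depth is known, and 2 against 2 libraries cannot reach 0.05.

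With a −log10 q of at least 3, H3K4me3 was gained with PHF13 depletion at 1 promoter. H3K27me3 was gained at 4 and lost at 4 with TGFβ, gained at 0 and lost at 13 with PHF13 depletion. Its relative change with PHF13 depletion was 0.42, its gap to coding starts −1.16 points (exact permutation p = 0.0312) and to nearby lncRNAs −0.905. With lists of equal length, H3K4me3 was gained at 31 and lost at 3 with TGFβ and gained at 9 and lost at 36 with PHF13 depletion. H3K27ac was gained at 33 and lost at 10 with TGFβ and gained at 8 with PHF13 depletion. H3K27me3 was gained at 75 and lost at 66, and gained at 30 and lost at 126. Its share change with TGFβ was 0.191 points, its gap to coding starts −4.17 and to nearby lncRNAs −1.60. Gained H3K4me3 with PHF13 depletion was 1 with at least 200 bp covered and 1 with a window of 500 bp each side, where H3K27me3 lost with TGFβ was 74. Without near-identical copies the H3K27me3 gaps were −3.74 (exact permutation p = 0.0312) and −0.260. The cause of these shifts was not tested, beyond the fewer peaks that each filter leaves.

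Leaving out 1 library relaxes the criterion for gained and lost promoters. With TGFβ, gained H3K4me3 then ranged from 60 to 230 and lost from 3 to 69, gained H3K27ac from 116 to 352 and lost from 1 to 12, gained H3K27me3 from 57 to 611 and lost from 184 to 845. The largest counts came without siControl replicate 2 (230 and 611), siControl replicate 1 (69 and 845), siControl+TGFβ replicate 2 (352) and siControl+TGFβ replicate 1 (12). With PHF13 depletion, gained H3K4me3 ranged from 3 to 28 and lost from 105 to 277, gained H3K27ac from 0 to 67 and lost from 25 to 729, gained H3K27me3 from 40 to 277 and lost from 248 to 1159. The gains were largest without siPHF13+TGFβ replicate 1, the losses without siPHF13+TGFβ replicate 2. The share change of H3K27ac with PHF13 depletion ranged from −6.83 to 0.6002 points and relative to coding starts from −0.58 to 0.061, and that of H3K27me3 relative to coding starts from −0.42 to 0.040, each above 0 without siPHF13+TGFβ replicate 1. The change of H3K27me3 with TGFβ ranged from −7.92 to 5.11 points and relatively from −0.24 to 0.12, above 0 without siControl replicate 2. With 5 libraries the smallest exact permutation p is 0.0625, so the H3K4me3 gaps of −54.0 to −53.9 and −51.2 to −50.9 points and the H3K27ac gaps of −41.9 to −36.0 and −40.1 to −34.6 points could not pass.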

Other observations

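The 10 standalone promoters with all 3 marks in all 6 lists were mostly duplicated DNA, since 8 of the windows have near-identical copies elsewhere in the genome, against 9.07% of all members. WASH2P, on chromosome 2 with 5 copies, had H3K4me3 over 982 to 1122 bp, H3K27ac over 357 to 993 bp and H3K27me3 over 563 to 1129 bp. ROCK1P1, near the end of chromosome 18, had 1410 to 1475, 1390 to 1459 and 2001 bp, and no copy by this criterion. LINC00273 also had none, with 297 to 477, 201 to 488 and 367 to 584 bp. FAM230E, on chromosome 22 with 8 copies, had 227 to 515, 212 to 481 and 156 to 602 bp. Where copies are identical, reads from them cannot be told apart, and the part of copies in these peaks was not tested.

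ENSG00000286809, 29275 bp from RICTOR, was the only standalone promoter besides MALAT1 with H3K27ac in all 6 lists and no other mark in any. H3K27ac covered 480 and 814, 1054 and 853, and 188 and 806 bp in the group order used above. Its CpG observed over expected ratio was 0.12.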
